A study of Homo sapiens with 12 samples.

Results

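The genes of epithelial-mesenchymal transition (EMT) described here were 10 genes named by symbol, out of 62696 gene identifiers in both count tables: the epithelial surface proteins CDH1 and EPCAM, the mesenchymal proteins CDH2, VIM and FN1, and the transcription factors SNAI1, SNAI2, ZEB1, ZEB2 and TWIST1. They were chosen by name, as markers and regulators of EMT, and each matched 1 Ensembl identifier. Polyadenylated RNA had been sequenced from SKBR3 and MDA-MB-453, established lines of HER2 breast cancer, in 12 libraries that form 4 groups of 3, untreated and TWEAK-treated in each line. TWEAK is a ligand of the TNF family that acts through the receptor Fn14. The study asked how breast cancer lines of different subtypes respond to this ligand. For the TWEAK groups the labels give 8 h of starvation in Opti-MEM, then 48 h with TWEAK at 10 ng/ml, given again after 24 h. The untreated groups carry that same protocol text with the treatment label Untreated, and how they were handled is not stated further. The labels name no other agent or allele. The study calls the replicates biological, the labels do not say whether they were separate cultures, and p-values measure only the spread between these libraries of each line.

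In EMT, epithelial cells lose the junctions that hold them together and take on the shape and movement of mesenchymal cells. The SNAI and ZEB zinc-finger proteins and the helix-loop-helix protein TWIST1 are the classical drivers, and SNAI and ZEB proteins bind E-box sequences in the CDH1 promoter and repress it. Loss of E-cadherin, gain of N-cadherin and vimentin, and deposition of fibronectin are the usual readouts, and in breast carcinoma partial states that mix both sets of markers are well known.

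Libraries held 24773003 to 35208304 counts, and 3 counts, used here as the limit of detection, stood for 0.0818 to 0.1251 CPM, the count scaled to the library's total after TMM normalisation. TWEAK replicate 2 stood apart from the other TWEAK replicates in SKBR3, with a chi-square per degree of freedom of 21.1 and 23.7 against at most 5.76 for pairs without it. In MDA-MB-453 it did so less, with 10.1 and 5.40 against at most 2.89. Calls and list counts that moved without it are given both ways. ERBB2, the gene of HER2, stood at 7571 ± 285 CPM in untreated SKBR3 and 890 ± 16.1 CPM in untreated MDA-MB-453 (SD, n = 3). The Fn14 gene TNFRSF12A stood at 66.3 ± 5.80 and 52.1 ± 0.810 CPM in the same groups, and the TWEAK gene TNFSF12 had no count in 11 of 12 libraries and 1 count in the other. The summed level of 6 markers of HER2 breast cancer epithelium, EPCAM among them, was 18700 to 22900 CPM in SKBR3 and 3070 to 3290 CPM in MDA-MB-453, and that of 3 leukocyte markers was at most 0.260 CPM in any library. The summed level of 7 fibroblast markers was 17.6 to 21.0 CPM in SKBR3 and 107 to 123 CPM in MDA-MB-453, where COL1A1 stood at 120 ± 3.56 CPM untreated and COL3A1, DCN and LUM were at 0 in all 6 libraries.

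CDH1 lies on chr16:68737292-68835537 (plus strand), EPCAM on chr2:47345158-47387601 (plus strand), CDH2 on chr18:27932879-28177946 (minus strand), FN1 on chr2:215360440-215436073 (minus strand) and SNAI1 on chr20:49982980-49988886 (plus strand), all in hg38 with GENCODE release 44. The exons of EPCAM, FN1 and SNAI1 overlap no other annotated gene. Those of VIM overlap VIM-AS1 on the opposite strand over 12.7% of their bases, and those of ZEB1 and ZEB2 overlap ZEB1-AS1 and ZEB2-AS1 over 4.58% and 4.97%, so reads there could belong to either gene if strand was not used in counting.

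The RefSeq promoter table (GRCh38.p14) held 5 of the 10 genes: CDH2, VIM, FN1, ZEB1 and ZEB2. Shown are the 250 bases before the annotated start of 3 of them: FN1, which changed with TWEAK in MDA-MB-453, VIM, the mesenchymal marker at 2 to 11 counts per library in both lines, and the outermost of 7 ZEB1 windows, which was picked because it holds the E-box that SNAI and ZEB proteins recognise. Capitals mark matches, on either strand, to the E-box CAGGTG, the cyclic AMP response element TGACGTCA, the AP-1 site TGAGTCA, the kappaB consensus and the CAAT box CCAAT.
FN1, chr2:215436069-215436318, minus strand: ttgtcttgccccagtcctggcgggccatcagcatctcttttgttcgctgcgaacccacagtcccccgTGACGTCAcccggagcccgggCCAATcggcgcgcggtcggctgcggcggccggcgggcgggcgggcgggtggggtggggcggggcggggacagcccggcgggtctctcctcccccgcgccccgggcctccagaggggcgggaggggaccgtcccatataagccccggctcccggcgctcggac
VIM, chr10:17227991-17228240, plus strand: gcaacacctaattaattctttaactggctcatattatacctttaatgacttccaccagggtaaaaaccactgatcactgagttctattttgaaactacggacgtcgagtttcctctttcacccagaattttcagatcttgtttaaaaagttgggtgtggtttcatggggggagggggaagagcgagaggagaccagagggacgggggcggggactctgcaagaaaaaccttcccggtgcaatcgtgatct
ZEB1, chr10:31318167-31318416, plus strand: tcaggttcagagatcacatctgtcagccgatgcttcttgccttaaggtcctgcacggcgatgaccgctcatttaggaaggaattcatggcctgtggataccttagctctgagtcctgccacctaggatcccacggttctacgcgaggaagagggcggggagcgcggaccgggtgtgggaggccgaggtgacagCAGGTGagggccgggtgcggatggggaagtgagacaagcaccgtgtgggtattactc
The FN1 window held the cyclic AMP response element 183 bases before the start and a CAAT box 162 bases before it. Of 35116 windows of the same length in the table, 1.65% held that element, 32.0% a CAAT box, 17.5% the E-box, 5.21% the kappaB consensus and 4.20% the AP-1 site. The ZEB1 window held an E-box 57 bases before the start, another ZEB1 window held 2 E-boxes, 242 and 85 bases before its start, a further one a kappaB match at 175 bases, and the other 4 had no match. The VIM window matched none of the 5 motifs. These matches describe the letters of the windows and say nothing of binding.

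**Figure D1:**
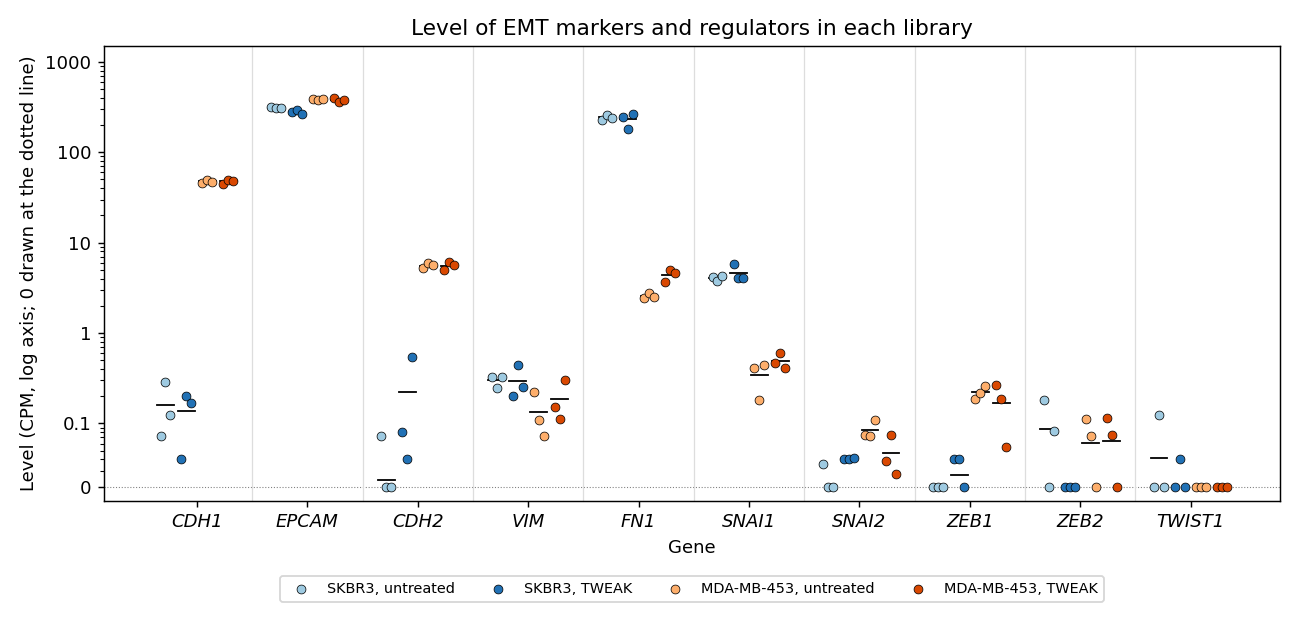
Level of each of the 10 genes in every library, in CPM on a log axis, with libraries at 0 drawn on the dotted line, points are libraries coloured by group and black bars are group means of 3. EPCAM was between 263 and 399 CPM in all 12 libraries, CDH1 and CDH2 stood high in MDA-MB-453 alone, FN1 and SNAI1 stood higher in SKBR3, and VIM, SNAI2, ZEB1, ZEB2 and TWIST1 lay below 0.5 CPM everywhere.

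The lines combined the EMT genes in different ways, and of those that could be tested, 1 passed with TWEAK in MDA-MB-453 and 0 in SKBR3 by edgeR. Per kilobase of exon, the scale on which genes can be compared, untreated SKBR3 had EPCAM at 127 ± 2.83, FN1 at 14.1 ± 0.859 and SNAI1 at 2.39 ± 0.160 CPM per kb, and the other 7 genes at 0.0580 CPM per kb or less. Untreated MDA-MB-453 had EPCAM at 157 ± 2.19, CDH1 at 7.83 ± 0.249, CDH2 at 0.649 ± 0.0413, SNAI1 at 0.202 ± 0.0825 and FN1 at 0.150 ± 0.0112 CPM per kb, followed by 5 genes at 0.0261 CPM per kb or less. EPCAM thus led in both lines, with FN1 next in SKBR3 and CDH1 next in MDA-MB-453. In MDA-MB-453 SNAI1 and FN1 differed by less than the spread of SNAI1, as did SNAI2, VIM and ZEB1 by less than theirs, and so did CDH1 and TWIST1 in SKBR3. With TWEAK the leading genes kept this order, with SNAI1 at 0.287 ± 0.0568 and FN1 at 0.258 ± 0.0391 CPM per kb in MDA-MB-453, again closer than their spread.

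The filter on low counts left 3 of the 10 genes to test in SKBR3 (EPCAM, FN1 and SNAI1) and 5 in MDA-MB-453 (those and CDH1 and CDH2). In SKBR3 0 of the 3 passed an adjusted p of 0.1 in edgeR's quasi-likelihood test, where 10.4% of all tested genes did, 6.6% as rises and 3.82% as falls. With p left unadjusted, EPCAM alone was under 0.05, and DESeq2 also called 0. In MDA-MB-453 1 of the 5 passed, FN1, which was higher, against 1.49% of all tested genes and 1.29% in that direction. The median log2 fold change was -0.078 over the 3 genes in SKBR3 and 0.00044 over the 5 in MDA-MB-453, beside -0.0074 and 0.0016 over all tested genes. Between the untreated lines all 5 tested genes passed, 3 with the higher level in MDA-MB-453 and 2 with the higher level in SKBR3, where 87.2% of all tested genes did (42.4% higher and 44.8% lower), so this count is close to the background. Their untreated libraries did not overlap between the lines in any of the 5, which held for 85.3% of all tested genes.

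**Figure D2:**
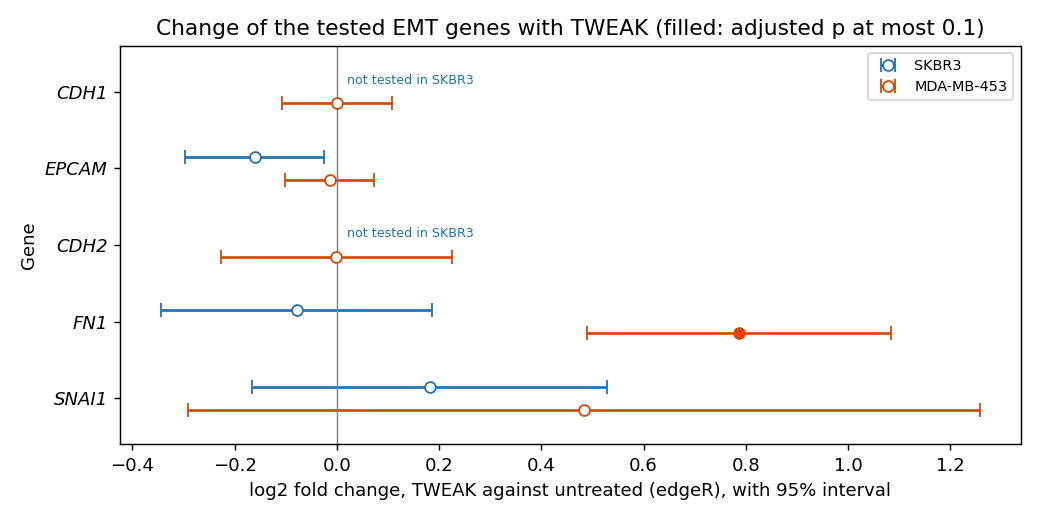
Log2 fold change with TWEAK of the 5 tested genes in each line, from edgeR, with 95% intervals (bars), filled points passed an adjusted p of 0.1. FN1 in MDA-MB-453 was the 1 filled point, at 0.79, and the intervals of CDH1 and CDH2 in MDA-MB-453 lay around 0.

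CDH1 encodes E-cadherin, the adhesion protein of epithelial adherens junctions. In SKBR3 it was close to absent, with 2, 7 and 3 counts in untreated replicates 1, 2 and 3 and 1, 5 and 4 counts with TWEAK. In MDA-MB-453 it stood at 46.2, 49.2 and 47.4 CPM untreated and 44.5, 49.9 and 48.3 CPM with TWEAK. The treated and untreated libraries of each line overlapped, while the lowest MDA-MB-453 library was far above the highest SKBR3 library at 0.290 CPM. Pooled over untreated libraries, CDH1 was 302-fold higher in MDA-MB-453 (exact 95% counting interval 173 to 586, edgeR adjusted p = 4.32e-26), and over TWEAK libraries 351-fold. With TWEAK its log2 fold change in MDA-MB-453 was 0.00044 ± 0.0501 (SE, n = 3 against 3, edgeR adjusted p = 1.0), with an interval of -0.11 to 0.11. In SKBR3 CDH1 was too low to be tested.

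EPCAM encodes a surface glycoprotein of epithelia and carcinomas. Its level in untreated SKBR3 was 318, 306 and 305 CPM, and with TWEAK 276, 295 and 263 CPM. The 3 TWEAK libraries were all below the 3 untreated ones. Non-overlap in either direction was seen in 26.5% of all tested genes in this line. The log2 fold change was -0.16 ± 0.0617 (SE, 95% interval -0.30 to -0.025), with an adjusted p of 0.173 in edgeR and a range of 0.00184 to 0.484 over its alternatives. TWEAK replicate 2 was the highest of the treated libraries, and without it the log2 fold change was -0.20 with an adjusted p of 0.00184. In MDA-MB-453 EPCAM stood at 387, 377 and 384 CPM untreated and at 399, 359 and 379 CPM with TWEAK. These groups overlapped, and the log2 fold change was -0.014 ± 0.0407 (SE, interval -0.10 to 0.073, edgeR adjusted p = 0.923). Untreated MDA-MB-453 held 1.23-fold more EPCAM than untreated SKBR3 (log2 0.30 ± 0.0366, edgeR adjusted p = 3.42e-08), the smallest of the 5 differences between the lines.

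CDH2 encodes N-cadherin, the cadherin of neurons and mesenchymal cells. In SKBR3 it had 2, 0 and 0 counts untreated and 2, 1 and 13 counts with TWEAK. TWEAK replicate 3 alone gave 13 of the 16 treated counts, and the other treated libraries were within the untreated range. CDH2 did not pass the filter there. A fit with no filter called it higher with a log2 fold change of 2.83 ± 0.928 (edgeR adjusted p = 0.0493), which rests on that library. In MDA-MB-453 it stood at 5.20, 5.90 and 5.61 CPM untreated and 4.92, 6.12 and 5.64 CPM with TWEAK. The groups overlapped, and the log2 fold change was -0.0011 ± 0.105 (SE, interval -0.23 to 0.22, edgeR adjusted p = 1.0). Untreated MDA-MB-453 held 213-fold more than untreated SKBR3, where the interval of 58.5 to 1760 reflects the 2 SKBR3 counts, and the edgeR adjusted p was 7.17e-17. E-cadherin and N-cadherin transcripts were thus both present in MDA-MB-453, with CDH1 at 12.1 ± 0.410 times the level of CDH2 per kilobase in untreated and 12.1 ± 0.633 times in TWEAK libraries (SD, n = 3). In SKBR3 both were near the limit of detection.

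VIM encodes vimentin, the intermediate filament of mesenchymal cells. Its counts were 9, 6 and 8 in untreated SKBR3, 5, 11 and 6 with TWEAK, 6, 3 and 2 in untreated MDA-MB-453 and 4, 3 and 11 with TWEAK. No group stood apart from all others, and VIM did not pass the filter in any comparison. In CPM the untreated libraries did not overlap between the lines, at 0.248 to 0.330 in SKBR3 and 0.0734 to 0.223 in MDA-MB-453. The lowest of the former and the highest of the latter each held 6 counts. Of all tested genes 85.3% did not overlap there. A fit with no filter called VIM between the untreated lines and not with TWEAK in either line. VIM was lower in MDA-MB-453, with a log2 difference of -1.12 ± 0.548 (edgeR adjusted p = 0.0840). Pooled counts gave a 2.24-fold higher level in untreated SKBR3 (exact 95% counting interval 1.05 to 5.08) and 1.48-fold with TWEAK. The opposite-strand gene VIM-AS1, at 0 to 6 counts per library, was of the same order.

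FN1 encodes fibronectin, the matrix glycoprotein that mesenchymal cells deposit, and was the 1 gene called with TWEAK among the 3 tested in SKBR3 and the 5 tested in MDA-MB-453. In MDA-MB-453 it was at 2.45, 2.81 and 2.50 CPM untreated (66, 77 and 68 counts) and at 3.69, 4.997 and 4.63 CPM with TWEAK (96, 134 and 170 counts). All 3 TWEAK libraries were above all 3 untreated ones. Of all tested genes in this line, 15.1% had groups that did not overlap, counted in either direction. FN1 rose 1.72-fold, a log2 fold change of 0.79 ± 0.138 (SE, interval 0.49 to 1.08, edgeR adjusted p = 0.00797). DESeq2 called it too. The adjusted p ranged from 1.75e-06 to 0.148 over its alternatives, and the call was lost when all 12 libraries shared 1 fit, where the spread is that of both lines, and in no other. Without TWEAK replicate 2 and with each other library left out in turn, the log2 fold change lay between 0.71 and 0.89 and the call was kept.

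In SKBR3 FN1 was far higher, at 230, 259 and 240 CPM untreated and 248, 179 and 267 CPM with TWEAK. TWEAK replicate 2 was the lowest of the 6 libraries and replicate 3 the highest, so the groups overlapped. The log2 fold change was -0.078 ± 0.120 (SE, interval -0.34 to 0.19, edgeR adjusted p = 0.780), and without TWEAK replicate 2 it was 0.080 with an adjusted p of 0.358. Untreated SKBR3 held 93.8-fold more FN1 than untreated MDA-MB-453 (exact 95% counting interval 81.9 to 108, edgeR adjusted p = 3.20e-30), and with TWEAK the ratio was 51.6-fold (46.7 to 57.1). The TWEAK-treated MDA-MB-453 libraries, though higher than their controls, thus remained well below every SKBR3 library.

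**Figure D3:**
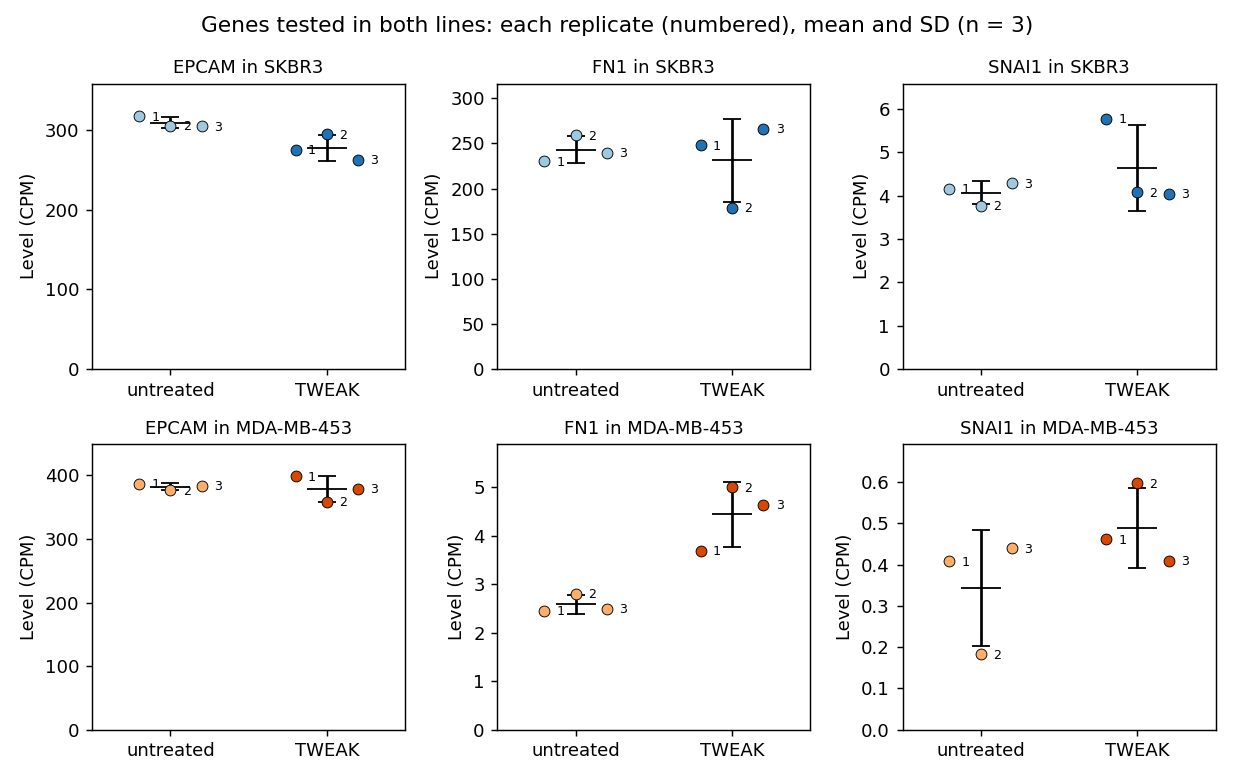
Level in CPM of the 3 genes tested in both lines, by treatment, on linear axes from 0, numbered points are replicates, bars are the mean and SD of 3. In MDA-MB-453 the FN1 libraries rose from 2.58 ± 0.194 to 4.44 ± 0.674 CPM without overlap, while FN1 in SKBR3 overlapped, with TWEAK replicate 2 at 179 CPM.

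SNAI1, the zinc-finger repressor Snail, was the 1 EMT factor of the 5 to pass the filter. In SKBR3 it stood at 4.17, 3.76 and 4.29 CPM untreated and 5.78, 4.09 and 4.05 CPM with TWEAK. TWEAK replicate 1 alone was above the untreated libraries. The log2 fold change was 0.18 ± 0.157 (SE, interval -0.17 to 0.53, edgeR adjusted p = 0.586), and without TWEAK replicate 1 it was -0.0056. In MDA-MB-453 SNAI1 had 11, 5 and 12 counts untreated and 12, 16 and 15 counts with TWEAK, or 0.408, 0.182 and 0.440 against 0.461, 0.597 and 0.409 CPM. The groups overlapped, with a log2 fold change of 0.48 ± 0.360 (SE, edgeR adjusted p = 0.664). Its interval ran from -0.29 to 1.26, so a rise within it was not excluded. Untreated SKBR3 held 11.9-fold more SNAI1 than untreated MDA-MB-453 (exact 95% counting interval 8.06 to 18.2, edgeR adjusted p = 8.05e-14). The line with more SNAI1 was the line with hardly any CDH1, a description over 2 lines.

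The other 4 factors were at or near the limit of detection in every library. SNAI2, the Slug repressor, had 1, 0 and 0 counts in untreated SKBR3, 1 count in each TWEAK library, 2, 2 and 3 in untreated MDA-MB-453 and 1, 2 and 1 with TWEAK. ZEB1 had no count in untreated SKBR3, 1, 1 and 0 with TWEAK, 5, 6 and 7 in untreated MDA-MB-453 and 7, 5 and 2 with TWEAK. The untreated libraries of the lines did not overlap for SNAI2 or ZEB1. SNAI2 was 6.54-fold higher in MDA-MB-453, with an exact 95% counting interval of 0.84 to 295 that includes no difference, and ZEB1 at least 5.61-fold higher when 3 counts over the SKBR3 group are taken as the floor. With no filter edgeR called ZEB1 between the untreated lines (adjusted p = 5.58e-05) and not SNAI2 (0.150). Its antisense neighbour ZEB1-AS1 was also higher there, at 2.29 ± 0.0841 against 0.873 ± 0.248 CPM (SD, n = 3, edgeR adjusted p = 8.69e-07), and reads in the shared bases could not be told apart if strand was not used. ZEB2 had 5, 0 and 2 counts in untreated SKBR3, none with TWEAK, and 3, 2 and 0 counts in MDA-MB-453 with and without TWEAK. TWIST1, the helix-loop-helix factor, had 3 counts in untreated SKBR3 replicate 2, 1 in TWEAK replicate 2 and none in the other 10 libraries. Neither ZEB2 nor TWIST1 showed a group whose libraries all stood apart from the others. In bulk RNA, fewer cells that express such a gene and less RNA per cell cannot be told apart.

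A model over the 12 libraries with a term for the difference between the 2 responses asked whether TWEAK acted alike on both lines. Of the 5 tested EMT genes FN1 passed, where 3.37% of all tested genes did (1.01% in the direction of FN1, with the more positive change in MDA-MB-453, and 2.36% in the other). At an unadjusted p under 0.05 there were 2, CDH2 and FN1. Its change in MDA-MB-453 exceeded that in SKBR3 by 0.86 ± 0.232 on the log2 scale (SE, interval 0.37 to 1.35, edgeR adjusted p = 0.0676). The adjusted p ranged from 3.59e-08 to 0.193 over its alternatives, and the call was lost at a threshold of 0.05 and with any of 6 libraries left out: SKBR3 untreated replicate 2 (adjusted p 0.145), the MDA-MB-453 untreated replicates 1, 2 and 3 (0.179, 0.122 and 0.185) and the MDA-MB-453 TWEAK replicates 2 and 3 (0.186 and 0.193). The difference lay between 0.72 and 0.97 throughout these alternatives. EPCAM differed by 0.14 ± 0.0728 (edgeR adjusted p = 0.518), SNAI1 by 0.30 ± 0.409 (0.889) and CDH1 by 0.21 ± 0.590 (0.972), none of which passed. CDH2 differed by -2.85 ± 1.10 (0.285), on the 16 treated SKBR3 counts given above. Without SKBR3 TWEAK replicate 2, EPCAM and CDH2 passed as well, with adjusted p of 0.0581 and 0.0343.

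To set the near absence of CDH1 in SKBR3 beside its surroundings, the 3 nearest protein-coding genes on either side on chromosome 16 were read out, a choice made after the CDH1 values were seen. CDH3, which encodes P-cadherin and lies next to CDH1 on chr16:68636189-68727468, had 1, 0 and 0 counts in untreated SKBR3 against 141, 134 and 134 in untreated MDA-MB-453. Both neighbouring cadherin genes were thus near 0 in SKBR3. The genes around this pair had counts in every library of both lines, though HAS3 and CHTF8 had only 7 to 16 in each untreated SKBR3 library. ZFP90 stood at 13.02 ± 0.607 CPM in untreated SKBR3 and 33.0 ± 1.18 CPM in untreated MDA-MB-453, and TANGO6, on the other side of CDH1, at 9.501 ± 0.460 and 10.3 ± 0.661 CPM, a difference that did not pass (edgeR adjusted p = 0.215). SMPD3 was at 1.76 and 0.907 CPM, HAS3 at 0.446 and 1.74 CPM and CHTF8 at 0.553 and 0.453 CPM. CHTF8 also did not pass (adjusted p = 0.405). By edgeR ZFP90 and HAS3 were higher in untreated MDA-MB-453 (adjusted p = 1.52e-16 and 1.26e-07) and SMPD3 in untreated SKBR3 (adjusted p = 0.000114). With TWEAK none of these genes passed in either line where it was tested by edgeR.

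**Figure D4:**
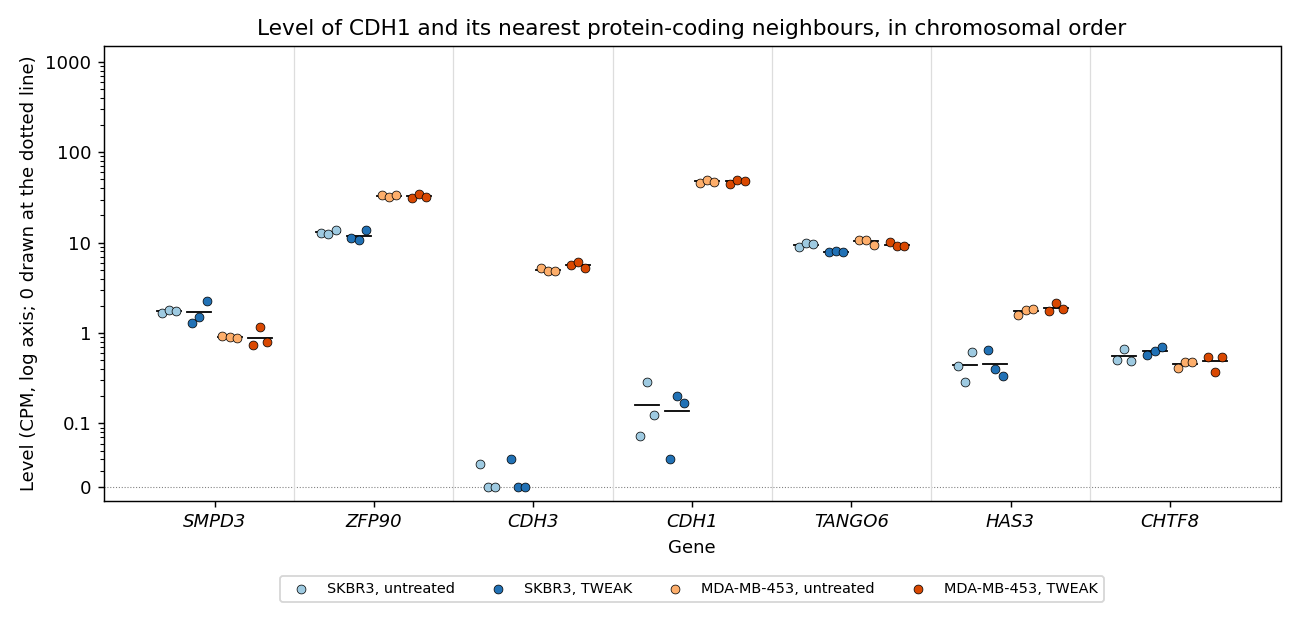
Level of CDH1 and its 6 nearest protein-coding neighbours in every library, in chromosomal order, in CPM on a log axis with 0 on the dotted line, points are libraries and black bars group means. CDH1 and CDH3 were at or near 0 in the SKBR3 groups, between ZFP90 and TANGO6, which were at 13.02 and 9.501 CPM in untreated SKBR3.

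The genes whose levels followed FN1 most closely over the 6 MDA-MB-453 libraries were LMO4 (Pearson r = 0.988), UMODL1 (0.987) and PI4KAP2 (0.987), out of 12737 genes with a mean of at least 1 CPM. This is a description over 6 libraries that share one treatment contrast. None of the 3 passed with TWEAK by edgeR, with log2 fold changes of 0.0581, 0.334 and 0.138 and adjusted p of 0.671, 0.201 and 0.389.

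Further genes of the EMT programme were taken from 6 lists of textbook members. The alternatives given for them also moved the calls over all tested genes. Without TWEAK replicate 2 these were 2780 of 15996 in SKBR3 (1589 higher, 1191 lower) and 2101 of 15216 in MDA-MB-453 (1003 and 1098). In SKBR3 they were 2575 of 17201 with all 12 libraries in 1 fit and 2902 of 15659 with the GC and length correction. Among 40 other mesenchymal markers, 24 were tested in SKBR3, of which 13 rose, 2 fell and 9 did not pass, where 6.6% of all tested genes rose and 3.82% fell, with a median log2 fold change of 0.57 beside -0.0074 for all tested genes. MMP9, a gelatinase, rose from 3.59 ± 0.847 to 22.3 ± 1.41 CPM (2.63 ± 0.135). MSN, the membrane-cytoskeleton linker moesin, rose from 1.5 ± 0.310 to 7.80 ± 1.35 CPM (2.37 ± 0.182), and COL5A1, a fibrillar collagen chain, from 51.6 ± 1.59 to 175 ± 8.23 CPM (1.75 ± 0.0630). Their edgeR adjusted p ranged from 3.81e-08 for COL5A1 to 1.08e-05 for MSN. Those that rose also included ITGA5, CD44, CALD1, LOXL2, ITGAV and CCN1. COL5A2, which encodes another collagen V chain, and THBS1 fell. The count lay between 11 and 15 higher and 2 and 3 lower over 14 settings, and the median between 0.31 and 0.714. When 10 counts were required in every library, 22 were tested, of which 11 rose and 2 fell, with a median of 0.397. Some of the 13 rises, perhaps MMP2 and ACTA2, may thus have passed the filter only through the TWEAK libraries. The 11 of 22 and the median of 0.397 do not rest on such genes, while the 13 of 24 and the median of 0.57 may. Without TWEAK replicate 2 the counts were 15 higher and 3 lower. FN1, which was held apart from this list, did not pass in SKBR3, and VIM and CDH2 were below the filter there.

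In MDA-MB-453 12 of these 40 markers were tested, of which 0 rose and 1 fell by edgeR and by DESeq2, where 1.29% of all tested genes rose and 0.208% fell, with a median of -0.011. Without TWEAK replicate 2 the counts were 0 and 4, where 1003 of 15216 tested genes rose and 1098 fell. With the replicate number as a block they were 0 and 3, where 490 of 14929 rose and 404 fell. THBS1, a matricellular glycoprotein, fell from 1557 ± 54.8 to 1319 ± 106 CPM (log2 -0.24 ± 0.0513, edgeR adjusted p = 0.0365), a call lost on leaving out untreated replicate 2 (adjusted p 0.296), untreated replicate 3 (0.245) or TWEAK replicate 3 (0.160) and with all 12 libraries in 1 fit (0.448). In SKBR3 the summed level of 7 fibroblast markers was 18.1 to 21.0 CPM in untreated and 17.6 to 18.7 CPM in TWEAK libraries. COL1A1, COL1A2 and COL3A1 are on both that list and the mesenchymal one, and LUM was at 0 with TWEAK. The sum of 3 endothelial markers went from between 3.89 and 5.10 to between 6.42 and 7.72 CPM, and its part in the result was not tested.

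Among 33 other epithelial markers in SKBR3, 5 rose, 2 fell and 26 did not pass, with a median of 0.12, beside 10.4% of all tested genes called. The tight junction gene CLDN1 rose from 3.14 ± 0.455 to 6.37 ± 0.229 CPM (log2 1.01 ± 0.129, edgeR adjusted p = 0.000474). CLDN4 rose by 0.50 ± 0.0784 and the keratin KRT7 by 0.46 ± 0.0934, and KRT19 and MAL2 rose as well. MUC1, a membrane mucin, fell from 55.7 ± 4.28 to 39.6 ± 3.39 CPM (log2 -0.50 ± 0.0849), as did CGN. Without TWEAK replicate 2 the counts were 13 higher and 4 lower, with all 12 libraries in 1 fit 11 and 2, and with the GC and length correction 8 and 4. The median lay between 0.0655 and 0.142 over 14 settings, lowest with that correction. Of 31 tested in MDA-MB-453, 2 rose, KRT7 by 0.25 ± 0.0460 and MAL2 by 0.18 ± 0.0331, and 0 fell, beside 1.49% of all tested genes called. KRT7 and MAL2 each lost the call in 3 of the alternatives. Without TWEAK replicate 2 the counts were 7 higher and 3 lower, where 2101 of 15216 tested genes were called. With the block they were 7 and 1, where 894 of 14929 were.

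Of 13 adherens junction partners of the cadherins, 10 were tested in SKBR3, with 0 called by edgeR (10.4% of all tested genes), 2 at an unadjusted p under 0.05 (CTNND1 and VCL) and 1 called by DESeq2. Without TWEAK replicate 2 edgeR called 3 higher and 1 lower, with the GC and length correction 2 and 1, and with all 12 libraries in 1 fit 2 and 0. Of 11 tested in MDA-MB-453, CTNND1 (p120-catenin, which binds and stabilises cadherins) rose by 0.31 ± 0.0637 (edgeR adjusted p = 0.0310, with 0.193 in DESeq2 and 0.199 without either of untreated replicates 2 and 3). The counts there were 1 higher and 0 lower, beside 1.49% of all tested genes called, and 1 and 2 without TWEAK replicate 2. Between the untreated lines 4 of 11 tested partners were higher in MDA-MB-453 (CDH3, NECTIN3, NECTIN1 and NECTIN4) and 6 in SKBR3, where 87.2% of all tested genes differed. Of the catenin genes JUP and CTNNA1 were 6.11-fold and 2.99-fold higher in SKBR3, and CTNNB1 did not pass (edgeR adjusted p = 0.406). Of 16 regulators of the epithelial state in SKBR3, OVOL2, a repressor of mesenchymal genes, rose by 0.65 ± 0.0844 (edgeR adjusted p = 0.000559), and KLF4 by 0.28 ± 0.0664. TP63 was called as well, but passed the filter only through the TWEAK libraries, at 16, 12 and 22 counts against 5, 3 and 5 untreated. These 3 made up the calls and 0 fell, where 6.6% of all tested genes rose and 3.82% fell. The counts were 2 higher and 0 lower when 10 counts were required in every library, which left out TP63, 5 and 1 without TWEAK replicate 2, 4 and 1 with all 12 libraries in 1 fit, and 4 and 3 with the GC and length correction, where the median of 0.040 became -0.015. KLF4 was lost on leaving out untreated replicate 1 (adjusted p 0.140) or 2 (0.175). Of 15 such regulators tested in MDA-MB-453, edgeR and DESeq2 each called 0, and TP63 alone had an unadjusted p under 0.05.

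Among 21 other EMT transcription factors, 12 were tested in SKBR3, of which 3 rose and 1 fell, beside 10.4% of all tested genes called. Both without TWEAK replicate 2 and with the GC and length correction 3 rose and 3 fell. ETS1 rose from 1.66 ± 0.404 to 5.38 ± 0.218 CPM (log2 1.68 ± 0.168), SOX4 from 90.3 ± 1.27 to 150 ± 0.743 CPM (0.73 ± 0.0550) and ID3, an inhibitor of helix-loop-helix factors, from 98.3 ± 5.54 to 151 ± 8.18 CPM (0.61 ± 0.0681). ID2, of the same inhibitor family, fell from 39.7 ± 1.33 to 32.4 ± 0.917 CPM (log2 -0.30 ± 0.0661, edgeR adjusted p = 0.0180, and 0.102 when untreated replicate 2 was left out). SOX4 in MDA-MB-453 rose from 120 ± 1.22 to 148 ± 5.86 CPM (0.29 ± 0.0394, edgeR adjusted p = 0.000828), the 1 call among 13 (1.49% of all tested genes), where without TWEAK replicate 2 there were 1 higher and 2 lower. Of 12 corepressors that SNAI and ZEB proteins recruit, such as CTBP1, KDM1A and EZH2, 0 were called in either line by edgeR or by DESeq2, with 1 at an unadjusted p under 0.05 in SKBR3 and 0 in MDA-MB-453. Without TWEAK replicate 2 edgeR called 2 higher in SKBR3 and 2 lower in MDA-MB-453. Over all tested genes it then called 2780 of 15996 and 2101 of 15216.

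**Figure D5:**
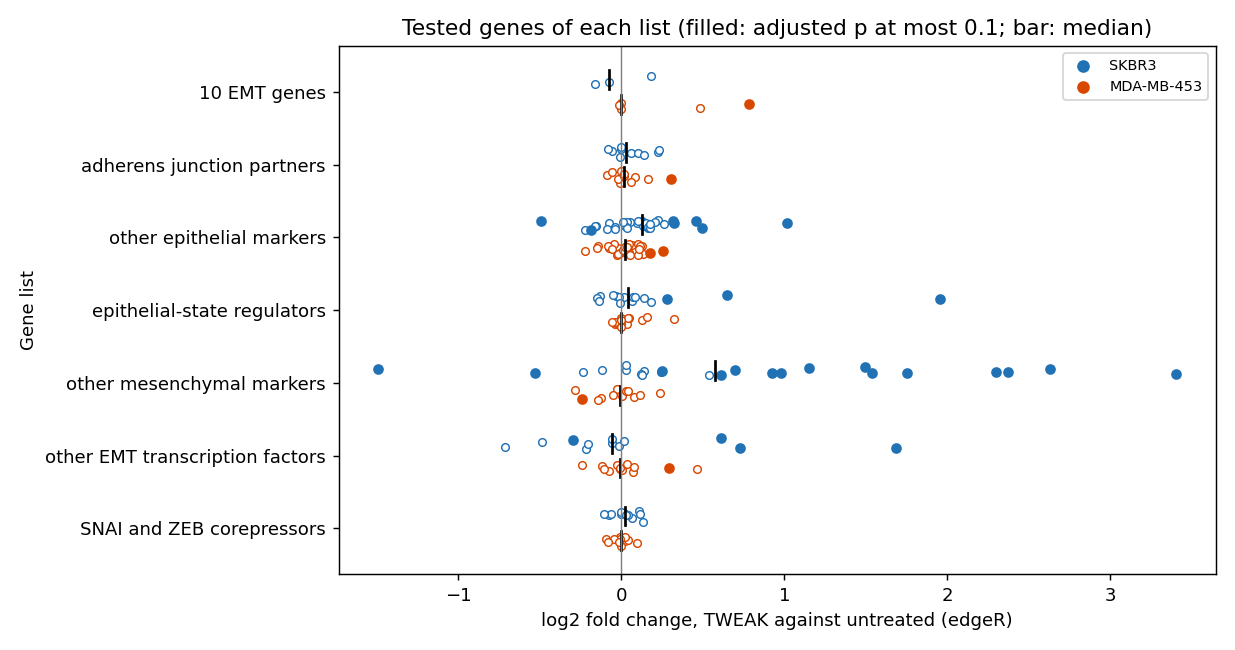
Log2 fold change with TWEAK of every tested gene in the 10 EMT genes and the 6 further lists, by line, filled points passed an adjusted p of 0.1 in edgeR and black bars are list medians. The mesenchymal markers of SKBR3 held 15 filled points, while in MDA-MB-453 the 7 list medians lay between -0.011 and 0.025.

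Between the untreated lines, 26 of 33 other epithelial markers were higher in SKBR3 and 5 higher in MDA-MB-453. Of 26 tested mesenchymal markers 18 had the higher level in SKBR3 and 7 the lower. Over all tested genes 87.2% differed, 44.8% with the higher level in SKBR3 and 42.4% in MDA-MB-453. The median log2 difference, with SKBR3 subtracted, was -0.81 for the epithelial and -3.54 for the mesenchymal markers, beside -0.0279 over all tested genes. SKBR3 held 283-fold more MUC1 (exact 95% counting interval 174 to 496) and at least 85.2-fold more CLDN1. For S100A4 the ratio of 3460 (1590 to 9440) rests on 3, 3 and 0 counts in untreated MDA-MB-453. MDA-MB-453 held 2170-fold more TNC (1450 to 3430), the matrix protein tenascin C, and 20.1-fold more GATA3, a luminal factor. Most of the called markers of both lists were thus higher in SKBR3, with some of each higher in MDA-MB-453. Among the 10 EMT genes, CDH1, CDH2 and EPCAM were higher in MDA-MB-453 and FN1 and SNAI1 in SKBR3.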

How the data were processed

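RNA-seq counts of 12 libraries were analysed. Per its methods, the authors used Trimmomatic for adaptors, STAR for alignment (hg38) and featureCounts for gene-level counts. The deposited counts are whole numbers with no normalisation. The strand setting, multi-mapping and annotation release are not given in the sources used here. The methods name a directional RNA kit and the labels a DNA kit. GENCODE release 44 gave symbols and positions for 62625 identifiers, 61918 of them in the same version, and 71 had no match.

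Groups came from the labels. Each line was fitted on its own 6 libraries with edgeR 4.0.16 (filterByExpr, TMM, quasi-likelihood F test, two-sided, no term for the replicate number) in R 4.3.3, with Benjamini-Hochberg adjustment over all 15661 (SKBR3) or 14929 (MDA-MB-453) tested genes and a threshold of 0.1, as were the interaction (17201 genes) and the untreated lines (16315). Fitted folds use a prior count of 0.125. Levels are CPM with TMM factors over all 12 libraries, per kilobase of merged exons where stated. Fold ratios between lines use pooled counts with exact binomial 95% intervals. Intervals and floors cover counting error only. The biological coefficient of variation came to 7.40% for SKBR3 and to 3.95% for MDA-MB-453. Fits were tested on simulated data.

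Named genes were all 10 EMT genes and, per further list and line, up to 4 of the largest changes past the threshold with a mean of at least 1 CPM (between lines, up to 3 per direction). Other genes named to complete a count were chosen after their values were seen. Some genes that the rule names are counted in their lists but not reported here. The genes and lists were chosen with earlier results of these data known. Alternatives were DESeq2 1.42.0, its size factors in edgeR, no filter, at least 10 counts in every library, all 12 libraries in 1 fit, a block for the replicate number, loess correction for GC content and length (span 0.5), a threshold of 0.05, and each library left out.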

Additional observations from a re-analysis of the deposited data

Results flagged for a closer look

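Results are listed here because the change with TWEAK differed between the lines by the interaction test in edgeR, given on the log2 scale with the SKBR3 change subtracted from the MDA-MB-453 change. FN1 differed by 0.858 (adjusted p = 0.0676), higher in 3 of 3 TWEAK libraries of MDA-MB-453 than in any control there, and was the 1 gene called of the 5 EMT genes tested. Over all tested genes 3.37% were called, 1.01% with the more positive change in MDA-MB-453 and 2.36% with it in SKBR3, a total of 579 genes that ran from 394 to 1150 with a library left out. Of 28 mesenchymal markers tested, 5 had a more positive change in SKBR3, among them COL5A1 at -2.84 (0.0183), MSN at -2.25 (0.0447), ITGA5 at -1.30 (0.000199) and ITGAV at -0.613 (0.0469), and COL5A2 at 1.60 (5.16e-05) had the opposite sign. In MDA-MB-453 COL5A1 had 0 to 6 counts per library and MSN 4 to 8, so the differences of these genes rest on a line near the limit of detection. Of 33 epithelial markers, CLDN4 at -0.372 (0.0290), KRT19 at -0.352 (0.0939) and PPL at -0.299 (0.0771) changed more positively in SKBR3, and CGN at 0.245 (0.0860) did so in MDA-MB-453. Of 16 regulators, OVOL2 at -0.657 (0.000524), KLF4 at -0.346 (0.0480) and TP63 at -1.64 (0.0264) changed more positively in SKBR3, as did, of 15 transcription factors, SOX4 at -0.441 (0.000463) and ID3 at -0.611 (0.000996). Groups of 3 libraries were too small for a test of single outlying samples.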

How the results depend on the processing

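Depth limits VIM, SNAI2, ZEB1, ZEB2 and TWIST1, which passed the filter in none of the 4 comparisons, CDH1 and CDH2 in SKBR3, and SNAI1 in MDA-MB-453, whose interval reaches 1.26. Of the alternatives for single EMT genes, 236 kept direction and side of the threshold, 6 gained and 8 lost a call, and 20 changed sign, in each case for a value whose interval included 0. The causes of these changes were not tested.

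In SKBR3 the count of called EMT genes was 1 instead of 0 with no filter (CDH2), with all 12 libraries in 1 fit and with the GC and length correction (both EPCAM), and 0 to 1 with a library left out. In MDA-MB-453 it was 0 instead of 1 with all 12 libraries in 1 fit. For the interaction it was 2 with no filter and 0 at an adjusted p of 0.05, and 0 to 3 with a library left out. Between the untreated lines it was 2 instead of 5 when 10 counts were required in every library, which leaves out CDH1, CDH2 and SNAI1, and it was 6 in DESeq2 (with ZEB1) and 7 with no filter (with VIM and ZEB1).

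Over all genes, 1633 were called in SKBR3, against 2575 with all 12 libraries in 1 fit and 2902 with the GC and length correction (1259 higher and 1643 lower, against 1034 and 599), and 926 to 2780 with a library left out. The lowest counts came without untreated replicates 1 (978) and 2 (926) and the highest without TWEAK replicate 2. In MDA-MB-453 223 were called, against 480 with no filter, 144 with all 12 libraries in 1 fit and 131 to 2101 with a library left out, the highest again without TWEAK replicate 2. The GC and length correction turned its split of 192 higher and 31 lower into 224 and 103. For the interaction 579 were called, 173 higher and 406 lower, against 996 with the GC and length correction (485 and 511) and 394 to 1150 with a library left out.

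Same-numbered deviations correlated at 0.218, -0.181 and -0.289 in SKBR3 and at 0.166, 0.173 and 0.0248 in MDA-MB-453, so a shared number was not taken as a pairing. In MDA-MB-453, but not in SKBR3, every library correlated best with its own number, a hint from the data. The study states that cell line experiments were repeated on different days, and the labels tie no number to a day. A replicate block gave 894 called genes in MDA-MB-453 instead of 223 and left the count of EMT genes as it was in every comparison.

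The log2 fold change of CDH1 in MDA-MB-453 changed sign to -0.0027 with DESeq2 size factors, -0.0035 in DESeq2, -0.00029 with at least 10 counts, -0.00013 with the block and -0.0019 with the GC and length correction, and lay between -0.034 and 0.044 with a library left out. That of CDH2 there became 0.0018 with no filter and 0.018 with the correction (-0.067 to 0.070). Leaving out a library gave -0.19 to 0.080 for FN1 and -0.0056 to 0.27 for SNAI1 in SKBR3, -0.051 to 0.020 for EPCAM in MDA-MB-453, and -0.48 to 0.61 for CDH1 and -0.0097 to 0.51 for SNAI1 in the interaction.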

Other observations

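The oestrogen receptor gene ESR1 rose in SKBR3 with TWEAK by 1.33 on the log2 scale by edgeR, where ESR1 and PGR together summed to 0.455 to 0.618 CPM untreated and 1.0 to 1.67 CPM with TWEAK. The endothelial cadherin gene CDH5 also rose in SKBR3, by 1.26. Both were chosen for mention after their values were seen.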
